A study of Homo sapiens with 6 samples.

Results

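Collagen genes were followed after knockdown of BCAT1 in SK-N-BE(2), an established line from a MYCN-amplified neuroblastoma. BCAT1 is the aminotransferase of the cytosol that acts on leucine, isoleucine and valine. A row of the gene count table was taken as a collagen gene where its Ensembl ID mapped to a protein-coding symbol made of COL, a number, A and a number. Of the 64252 rows, 44 met this rule, and 11 further rows with a collagen-like name (antisense genes and pseudogenes) did not. In 24 of the 44 genes the mean over all libraries reached 1 CPM (counts scaled to a common library total), and 22 reached it in every library. The groups were cells with short hairpin RNA 1 against BCAT1 (shBCAT1#1), cells with hairpin 2 (shBCAT1#2) and cells with a control hairpin (shControl), with 2 libraries of total RNA each. No drug, time point or vector is named in the labels, and they do not tell whether a group was cultured more than once. The p-values therefore reflect the spread among libraries alone, and this may be technical.

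Collagens are the triple-helical proteins of the extracellular matrix. Each chain is hydroxylated and folded with its partners in the endoplasmic reticulum, secreted, trimmed by proteases and, in the fibrillar types, cross-linked by lysyl oxidases. Fibrillar collagens form the fibres of stroma, collagen IV forms the sheet of basement membranes, collagen VI forms beaded filaments around cells, and fibril-associated collagens coat the surface of fibrils. In neuroblastoma much of the fibrillar matrix of a tumour is laid down by stromal cells, while neuroblasts in culture make matrix of their own.

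Total counts ran from 32333416 to 39321388 per library. BCAT1 itself had 55.8 and 55.3 CPM with shBCAT1#1 and 116 and 111 CPM with shBCAT1#2, against 459 and 475 CPM in shControl, log2 fold changes of −3.07 and −2.04. Markers of adrenergic neuroblasts were present in all libraries, with 8 of 8 at a mean of at least 1 CPM, and their sum was also lower, at 2740 to 2989 CPM in shBCAT1 libraries and 3581 to 3609 CPM in shControl libraries. Of 6 fibroblast markers, 5 reached that mean too (LUM, DCN, THY1, PDGFRA and PDGFRB), and FAP was at 0 counts in every shBCAT1 library. The summed fibroblast markers gave 672 to 716 CPM in shBCAT1 libraries and 1018 to 1062 CPM in shControl libraries, and most of that difference was THY1, with 392 and 406 CPM with shBCAT1#1 and 331 and 330 CPM with shBCAT1#2, against 634 and 657 CPM in shControl. PDGFRA was not lower with shBCAT1#2, at 122 and 118 CPM, against 102 and 111 CPM in shControl. The part of these markers in the collagen results was not tested, and in bulk RNA fewer cells of a type and less RNA per cell cannot be told apart. The defining markers SOX10 (Schwann cell) and CD3E (T cell) had 0 counts in all libraries. Of 9 mesenchymal neuroblastoma markers 8 reached 1 CPM, as did 1 of 4 Schwann cell, 1 of 4 endothelial, 1 of 3 leukocyte and 3 of 4 epithelial markers, and summed epithelial markers gave 11.9 to 20.1 CPM in shBCAT1 libraries and 9.60 to 11.6 CPM in shControl libraries.

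Levels of the collagen genes ran up to 727 CPM, in COL6A3. Summed over the 44 genes, collagens took 1262 and 1286 CPM with shBCAT1#1 and 1806 and 1792 CPM with shBCAT1#2, against 2160 and 2051 CPM in shControl. A few genes carried most of this sum: COL6A3 gave 34.3% and COL5A1 27.7% of collagen CPM in shControl, followed by COL1A1 (10.97%), COL6A2 (8.31%), COL6A1 (5.70%) and COL3A1 (5.50%). Per kilobase of exon, which allows levels to be compared between genes, the order in shControl was COL5A1 (52.1 CPM per kb), COL6A3 (36.7), COL6A2 (32.5), COL1A1 (23.5), COL6A1 (22.5), COL3A1 (17.0) and COL9A2 (9.78). COL1A1 and COL6A1, which stood next to each other in this order, had shControl values of 23.5 ± 2.03 and 22.5 ± 0.562 CPM per kb (SD, n = 2) and overlapped. All other tested collagens were below 3 CPM per kb of exon. The gaps between genes depend on the length used. Per kilobase of the longest transcript the named genes kept their order in shControl. COL5A1 and COL6A3 then stood close together, at 68.8 and 67.1 CPM per kb, and COL1A1 and COL6A1 further apart, at 34.3 and 28.3. Of the 44 genes, 14 did not pass the filter on low counts: COL4A3, COL10A1 and COL20A1 had 0 counts in all libraries, which allows up to 0.0743 to 0.0924 CPM a library (3 counts, counting error only), and the other 11 did not exceed 0.385 CPM in any library.

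**Figure D1:**
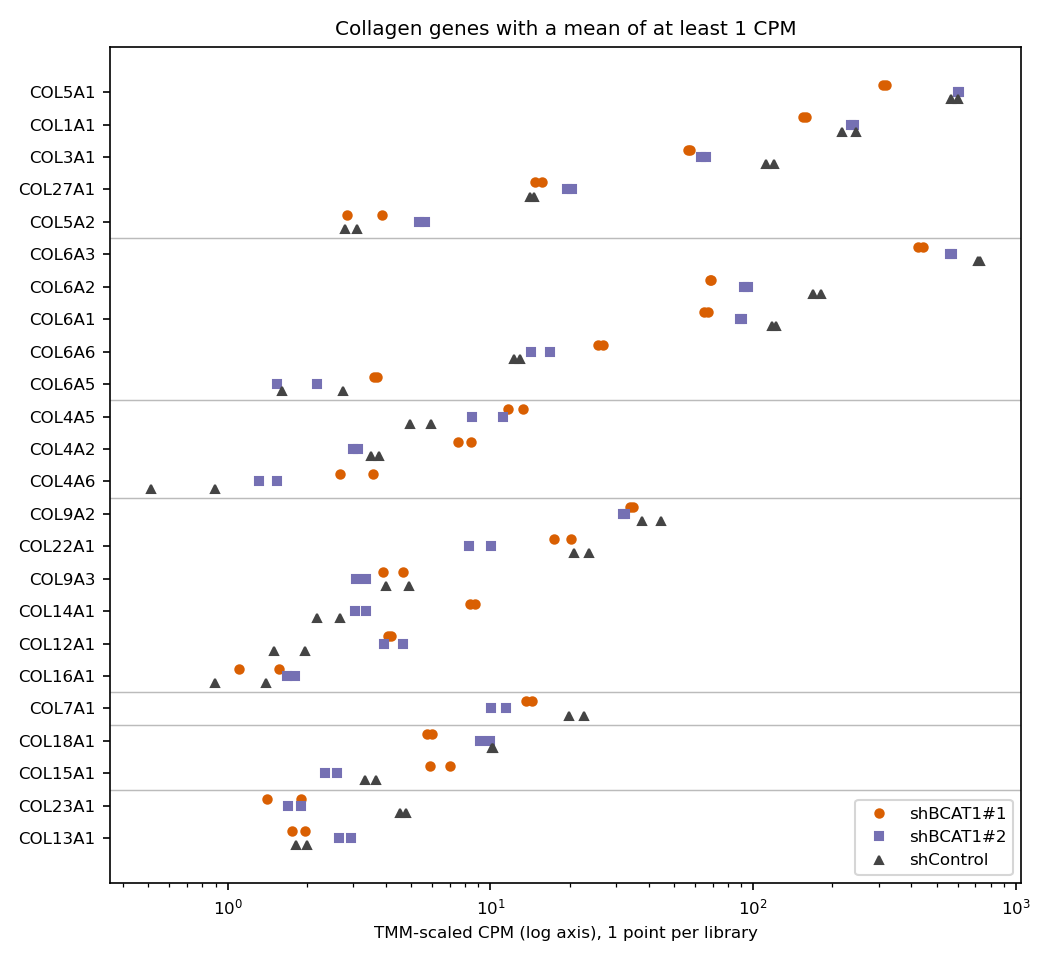
Level of the 24 collagen genes with a mean of at least 1 CPM, in TMM-scaled CPM on a log axis, with a point for each library (circles shBCAT1#1, squares shBCAT1#2, triangles shControl) and lines between structural classes. COL5A1 and COL6A3 stand at the right with 313 to 727 CPM, and COL4A6 at the left with 0.513 CPM in its lowest shControl library.

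Each gene was tested with edgeR's quasi-likelihood test over all 18734 genes that passed the filter on low counts, and called where the Benjamini-Hochberg adjusted p was under 0.05. With the mean of both hairpins against shControl, 8 of the 30 tested collagen genes rose and 12 fell. Over all genes tested, 23.6% were called higher and 26.4% lower in this comparison (50% in either direction), so a count of 8 of 30 is close to that background and 12 of 30 lies above it. In 6 of the 30 every shBCAT1 library was above every shControl library and in 11 every one was below, where 22% and 23.6% of all genes were so. The median log2 fold change was −0.26 for the 30 collagen genes and −0.01 for all genes. Their median absolute log2 fold change was 0.59, against 0.33 for all genes. With shBCAT1#1 against shControl, 7 rose and 10 fell, where 24.2% and 24.9% of all genes did so (49.1% in either direction). Every shBCAT1#1 library was above every shControl library for 10 of the 30 and below for 14, against 36.6% and 37.5% of all genes. With shBCAT1#2 against shControl, 7 rose and 10 fell, where 23.9% and 25.4% of all genes did so (49.3% in either direction). Every shBCAT1#2 library was above every shControl library for 11 of the 30 and below for 15, against 37.3% and 38.5% of all genes. The rises with shBCAT1#2 numbered 4 without shBCAT1#2 replicate 1 and 4 without shControl replicate 2. Both hairpins were compared with the same shControl libraries, so the values of each are set side by side without a count of their overlap. The hairpins were also compared directly: shBCAT1#2 over shBCAT1#1 gave 11 collagen genes higher and 8 lower, where 22.9% and 23.3% of all genes were called (46.2% in either direction). Every shBCAT1#2 library was above every shBCAT1#1 library for 12 of the 30 and below for 15, against 37.4% and 36.7% of all genes. Without shBCAT1#1 replicate 1 these counts were 7 and 5.

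**Figure D2:**
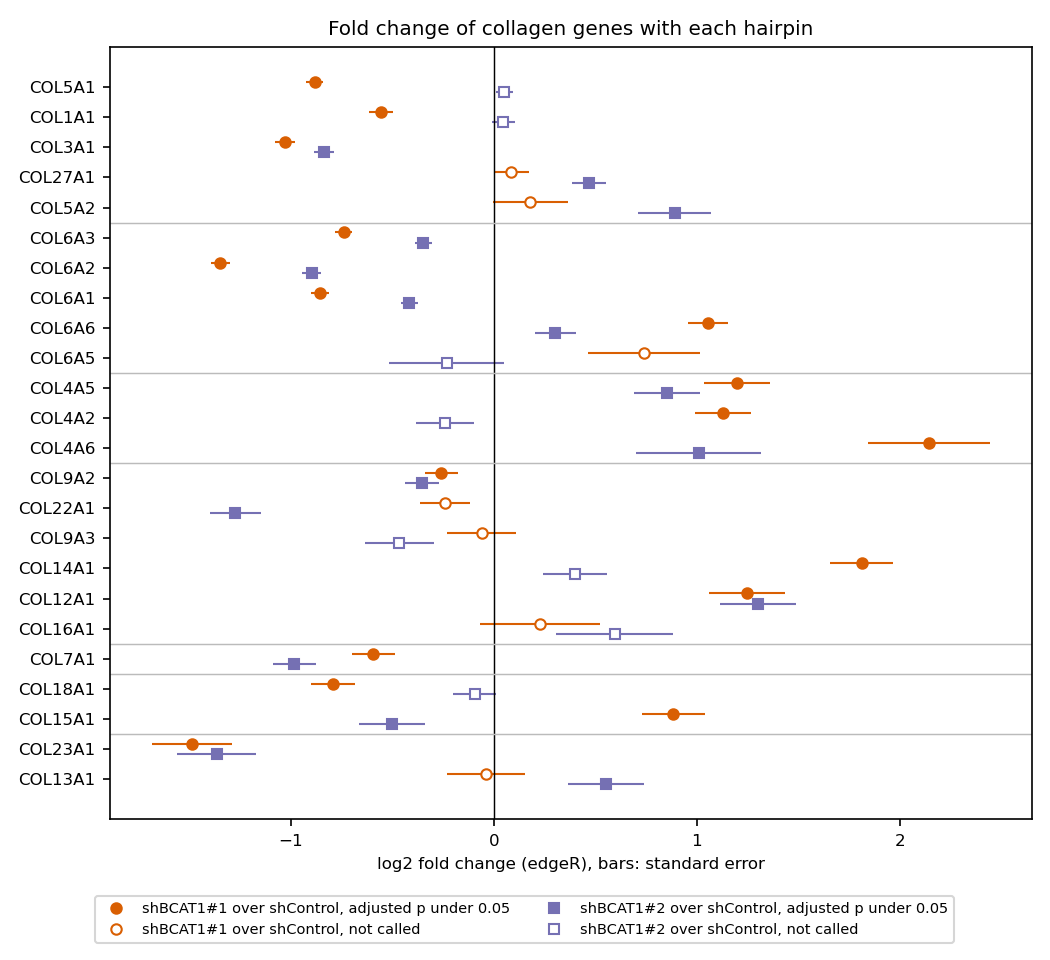
Log2 fold change of the same 24 genes with shBCAT1#1 (circles) and shBCAT1#2 (squares) over shControl, with standard errors from edgeR; filled symbols have an adjusted p under 0.05. COL5A1 and COL1A1 lie at −0.88 and −0.56 with shBCAT1#1 and at 0.05 each with shBCAT1#2, while COL6A1, COL6A2, COL6A3 and COL3A1 lie below 0 with both.

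The summed level of collagen VI was lower with both hairpins, at 588 and 605 CPM with shBCAT1#1 and 772 and 764 CPM with shBCAT1#2, against 1044 and 1018 CPM in shControl. Fibrillar collagens summed to 547 and 553 CPM with shBCAT1#1 and to 933 and 934 CPM with shBCAT1#2, against 983 and 913 CPM in shControl, so that shBCAT1#2 lay within the shControl range and shBCAT1#1 well below it. Collagen IV went the other way, with 24.6 and 23.1 CPM with shBCAT1#1 and 15.8 and 13.3 CPM with shBCAT1#2, against 10.5 and 9.43 CPM in shControl. The fibril-associated class summed to 70.5 and 73.6 CPM with shBCAT1#1, overlapping the 78.5 and 68.4 CPM of shControl, and to 54.5 and 53.5 CPM with shBCAT1#2. These sums are descriptions with no test.

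**Figure D3:**
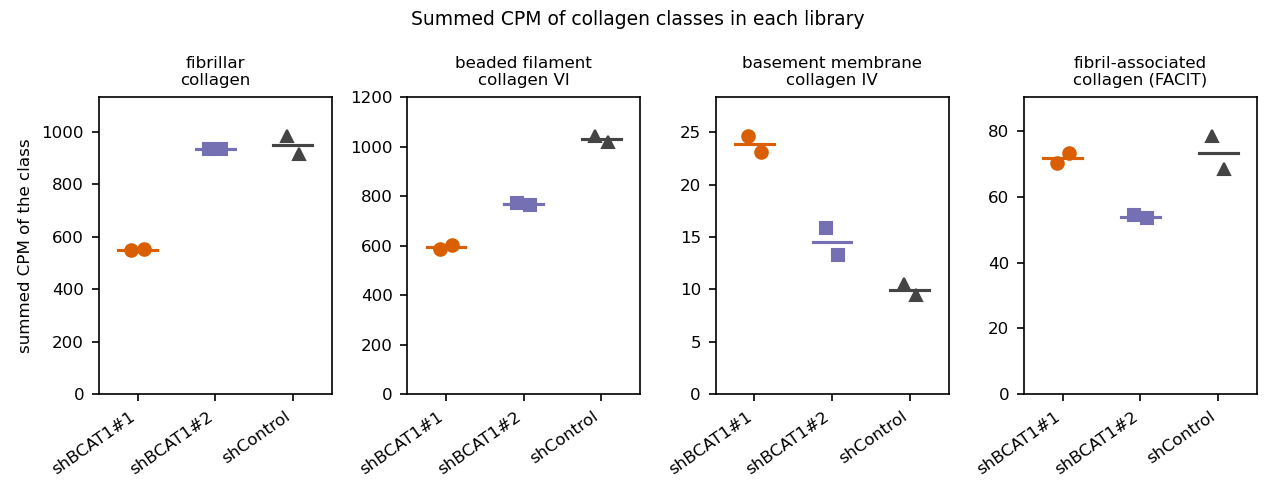
Summed CPM of 4 collagen classes in each library, with a horizontal bar at the mean of the 2 libraries; the vertical axes start at 0 and differ between panels. Collagen VI averaged 597, 768 and 1031 CPM in shBCAT1#1, shBCAT1#2 and shControl, and collagen IV averaged 23.9, 14.6 and 9.95 CPM.

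Collagen VI is built from the chains of COL6A1 and COL6A2 with that of COL6A3, whose place can be taken by its relatives COL6A5 and COL6A6. COL6A2 (chr21:46098097-46132849, plus strand, hg38) had 68.9 and 68.4 CPM with shBCAT1#1 and 92.2 and 95.6 CPM with shBCAT1#2, against 180 and 169 CPM in shControl. All shBCAT1 libraries were below both shControl libraries, and the fall was 1.12 on the log2 scale over both hairpins (SE 0.04, edgeR adjusted p = 1.2e-06). It was the steepest called fall among collagens with a mean of at least 5 CPM. COL6A1 had 67.5 and 65.0 CPM with shBCAT1#1 and 89.0 and 90.8 CPM with shBCAT1#2, against 122 and 118 CPM in shControl, and fell by 0.64 (SE 0.04, edgeR adjusted p = 4.7e-06). COL6A3, the collagen with the highest CPM in shControl and with shBCAT1#1, had 422 and 441 CPM with shBCAT1#1 and 573 and 561 CPM with shBCAT1#2, against 727 and 715 CPM in shControl, and fell by 0.54 (SE 0.03, edgeR adjusted p = 6.9e-06). For these 3 chains the libraries of the groups did not overlap and shBCAT1#2 lay between shBCAT1#1 and shControl. The difference between the hairpins was itself called for each, at 0.45 for COL6A2, 0.44 for COL6A1 and 0.39 for COL6A3 on the log2 scale, shBCAT1#2 over shBCAT1#1 (edgeR adjusted p = 9.1e-05, 7.1e-05 and 8.3e-05).

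COL6A6 moved the opposite way. It had 25.8 and 26.8 CPM with shBCAT1#1 and 16.8 and 14.3 CPM with shBCAT1#2, against 12.4 and 12.9 CPM in shControl. It rose by 1.06 with shBCAT1#1 (SE 0.10, edgeR adjusted p = 4.5e-05) and by 0.30 with shBCAT1#2 (SE 0.10, adjusted p = 0.034). The shBCAT1#2 value was 0.17 without shBCAT1#2 replicate 1 (adjusted p = 0.28), 0.27 without shControl replicate 1 (0.14) and 0.33 without shControl replicate 2 (0.072), and it was −0.14 after correction for GC content and length (0.24). COL6A5 had 3.69 and 3.61 CPM with shBCAT1#1 and 1.54 and 2.18 CPM with shBCAT1#2, against 1.61 and 2.76 CPM in shControl, and no comparison with shControl passed the test. Its hairpin difference of −0.97 (adjusted p = 0.020) was lost without shBCAT1#1 replicate 1 (0.068), shBCAT1#1 replicate 2 (0.057) or shBCAT1#2 replicate 1 (0.12). COL6A5 and COL6A6 lie on the same strand of chromosome 3, 75489 bases apart, and COL6A1 and COL6A2 on the same strand of chromosome 21, 93046 bases apart. The window from 250 bases before to 50 bases after the start of COL6A2 and of COL6A3 is shown because these chains had the steepest fall and the highest level in the class. Sequences are from RefSeq on GRCh38.p14, 5′ to 3′ on the strand of the gene, and matches to any of 4 motifs on either strand are in capitals. The motifs searched were the GC box with the letters GGGCGG, the CCAAT box, the TATA box with the letters TATAAA, and the E-box with the letters CACGTG. COL6A2 is chr21:46097862-46098161 (plus strand) and COL6A3 is chr2:237414115-237414414 (minus strand).
COL6A2: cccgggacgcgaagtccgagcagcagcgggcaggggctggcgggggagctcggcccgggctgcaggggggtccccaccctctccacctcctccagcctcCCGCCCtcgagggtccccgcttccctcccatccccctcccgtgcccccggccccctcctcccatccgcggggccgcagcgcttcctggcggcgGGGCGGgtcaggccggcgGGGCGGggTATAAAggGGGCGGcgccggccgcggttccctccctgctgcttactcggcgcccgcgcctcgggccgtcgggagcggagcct
COL6A3: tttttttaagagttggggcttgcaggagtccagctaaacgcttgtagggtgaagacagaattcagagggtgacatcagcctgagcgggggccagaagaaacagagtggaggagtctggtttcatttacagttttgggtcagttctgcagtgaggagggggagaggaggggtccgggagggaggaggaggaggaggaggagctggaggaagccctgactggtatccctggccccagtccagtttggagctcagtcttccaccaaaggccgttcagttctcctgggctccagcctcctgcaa
COL6A2 held 4 GC boxes and 1 TATA box, and COL6A3 held none of the 4 motifs. No motif contains another.

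COL5A1 and COL1A1, the fibrillar chains with the highest CPM, differed by hairpin. COL5A1 encodes the pro-alpha1 chain of collagen V, which starts and limits the growth of collagen I fibrils. COL5A1 (chr9:134641774-134844843, plus strand) had 313 and 320 CPM with shBCAT1#1 and 605 and 603 CPM with shBCAT1#2, against 599 and 567 CPM in shControl. Only the shBCAT1#1 libraries lay below those of shControl. It fell by 0.88 with shBCAT1#1 (SE 0.04, edgeR adjusted p = 1.4e-06), whereas shBCAT1#2 gave 0.05 (SE 0.04, adjusted p = 0.34). The difference of 0.93 between the hairpins had the smallest p among the collagens (SE 0.04, edgeR adjusted p = 9.4e-07). COL1A1, the major chain of collagen I, had 159 and 155 CPM with shBCAT1#1 and 236 and 241 CPM with shBCAT1#2, against 245 and 217 CPM in shControl. Its log2 fold change was −0.56 with shBCAT1#1 (SE 0.06, edgeR adjusted p = 8.3e-05) and 0.05 with shBCAT1#2 (adjusted p = 0.53), and the hairpins differed by 0.60 (adjusted p = 6.1e-05). The mean over both hairpins, −0.26, was −0.17 without shControl replicate 1, still called.

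COL3A1, the single chain of collagen III, was lower with both hairpins. It had 56.3 and 57.2 CPM with shBCAT1#1 and 66.3 and 63.4 CPM with shBCAT1#2, against 120 and 112 CPM in shControl. The fall was 1.03 with shBCAT1#1 and 0.84 with shBCAT1#2 (SE 0.05 each, edgeR adjusted p = 1.7e-06 and 6.7e-06). The small hairpin difference of 0.19 (edgeR adjusted p = 0.014) was not called without shBCAT1#1 replicate 1 (0.078), shBCAT1#1 replicate 2 (0.053) or shBCAT1#2 replicate 1 (0.11). COL5A2, the second chain of collagen V, lies tail to tail with COL3A1 on chromosome 2, 19149 bases away. COL5A2 had 2.84 and 3.88 CPM with shBCAT1#1 and 5.62 and 5.34 CPM with shBCAT1#2, against 2.80 and 3.11 CPM in shControl, and it rose by 0.89 with shBCAT1#2 (SE 0.18, edgeR adjusted p = 0.0034). Its rise over both hairpins, 0.54 (adjusted p = 0.022), was not called without shBCAT1#2 replicate 1 (0.058), shControl replicate 1 (0.13) or shControl replicate 2 (0.057). COL5A2 also differed between the hairpins by 0.71 (adjusted p = 0.011), a call lost without shBCAT1#1 replicate 1 (0.072) or shBCAT1#2 replicate 1 (0.061). COL27A1, a fibrillar collagen best known from cartilage, had 14.8 and 15.7 CPM with shBCAT1#1 and 19.5 and 20.4 CPM with shBCAT1#2, against 14.7 and 14.1 CPM in shControl. It rose by 0.47 with shBCAT1#2 (SE 0.09, edgeR adjusted p = 0.0019), and its mean over both hairpins, 0.28, was 0.25 without shControl replicate 2 and then not called (adjusted p = 0.089).

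The partner of COL1A1 was almost silent. COL1A2 had 10 and 7 counts with shBCAT1#1 and 6 and 2 counts with shBCAT1#2, against 21 and 13 counts in shControl. Its fall of 1.53 over both hairpins (SE 0.49, edgeR adjusted p = 0.030) rests on these counts and was not called when any library except shBCAT1#2 replicate 1 was left out, with values of −1.17 to −1.82. Its fall of 2.14 with shBCAT1#2 (adjusted p = 0.020) was likewise lost without shBCAT1#2 replicate 2 (−1.59, adjusted p = 0.12) or shControl replicate 1 (−1.77, adjusted p = 0.14). COL5A3 had 34 and 30 counts with shBCAT1#1 and 14 and 6 counts with shBCAT1#2, against 21 and 0 counts in shControl, and no comparison passed. COL11A2 had between 11 and 21 counts per library, with no call. COL2A1, COL11A1 and COL24A1 were not tested.

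In collagen IV all 3 tested chains were called higher in the mean of both hairpins, where 23.6% of all genes were. COL4A2 was not called higher with shBCAT1#2 alone. Collagen IV chains assemble as trimers. That of COL4A1 and COL4A2 is found in nearly all basement membranes. The COL4A5 and COL4A6 trimer is found in a few, such as those around smooth muscle. COL4A5 (chrX:108439844-108697545, plus strand) had 13.3 and 11.7 CPM with shBCAT1#1 and 11.2 and 8.51 CPM with shBCAT1#2, against 5.95 and 4.94 CPM in shControl. All shBCAT1 libraries were above both shControl libraries, with a log2 fold change of 1.03 over both hairpins (SE 0.15, edgeR adjusted p = 4.7e-04). COL4A6 (chrX:108155607-108439497, minus strand) had 3.58 and 2.68 CPM with shBCAT1#1 and 1.31 and 1.54 CPM with shBCAT1#2, against 0.899 and 0.513 CPM in shControl, a rise of 1.58 (SE 0.28, adjusted p = 0.0015). With shBCAT1#2 alone it rose by 1.01 (adjusted p = 0.025), a call lost without shBCAT1#2 replicate 1 (0.052), shBCAT1#2 replicate 2 (0.11) or shControl replicate 2 (a value of 0.66, adjusted p = 0.13). The hairpins differed for COL4A6 by −1.14 (adjusted p = 0.0099), which was not called without shBCAT1#1 replicate 1 (0.076) or shBCAT1#2 replicate 1 (0.065), and for COL4A5 by −0.35 (adjusted p = 0.10).

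COL4A2 differed by hairpin. It had 7.50 and 8.41 CPM with shBCAT1#1 and 3.15 and 3.01 CPM with shBCAT1#2, against 3.52 and 3.76 CPM in shControl. The shBCAT1#1 libraries lay above those of shControl and the shBCAT1#2 libraries below. The rise was 1.13 with shBCAT1#1 (SE 0.14, edgeR adjusted p = 2.0e-04), the value with shBCAT1#2 was −0.24 (adjusted p = 0.20), and the hairpins differed by −1.37 (adjusted p = 8.1e-05). Averaged over both hairpins it was called higher at 0.44, although the libraries overlapped, and not without shControl replicate 1 (adjusted p = 0.097). COL4A1 had 8 and 12 counts with shBCAT1#1 and 6 and 7 counts with shBCAT1#2, against 4 and 8 counts in shControl, and was too low to be tested. COL4A4 had 2 counts in each shBCAT1#2 library and 0 in the others.

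The collagen IV genes stand in head-to-head pairs whose transcripts start on opposite strands a short distance apart. The RefSeq starts of COL4A6 and COL4A5 are 379 bases apart on chromosome X, those of COL4A1 and COL4A2 are 126 bases apart on chromosome 13, and those of COL4A4 and COL4A3 are 418 bases apart on chromosome 2. The windows around the starts of COL4A6 and COL4A5 are shown because both genes of this pair rose; the windows overlap by 121 bases, read on opposite strands. COL4A6 is chrX:108439409-108439708 (minus strand) and COL4A5 is chrX:108439588-108439887 (plus strand), with the same motifs in capitals.
COL4A6: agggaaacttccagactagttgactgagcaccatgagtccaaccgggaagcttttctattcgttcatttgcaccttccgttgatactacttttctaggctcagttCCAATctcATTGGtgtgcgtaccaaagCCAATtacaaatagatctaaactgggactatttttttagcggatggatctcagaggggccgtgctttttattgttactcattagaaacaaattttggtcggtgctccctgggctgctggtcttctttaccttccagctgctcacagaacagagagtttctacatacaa
COL4A5: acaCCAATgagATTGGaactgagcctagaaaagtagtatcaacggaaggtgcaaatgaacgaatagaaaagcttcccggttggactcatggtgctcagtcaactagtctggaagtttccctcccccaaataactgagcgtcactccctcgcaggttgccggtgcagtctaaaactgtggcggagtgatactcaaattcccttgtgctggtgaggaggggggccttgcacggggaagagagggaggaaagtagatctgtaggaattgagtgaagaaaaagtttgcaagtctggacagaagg
RefSeq gives a further COL4A6 start, whose window (chrX:108438373-108438672, minus strand) held a GC box and no CCAAT box; the window shown is the one nearest COL4A5. The COL4A6 window shown held 3 CCAAT matches and the COL4A5 window 2, both within the shared bases, and neither of these windows held a GC box, TATA box or E-box. Over all 35116 RefSeq windows of this length, 44.95% held the GC box, 34.6% the CCAAT box, 11.5% the TATA box and 7.26% the E-box. Of 44 windows that matched 32 collagen genes, 24 held the GC box, 14 the CCAAT box, 8 the TATA box and 0 the E-box. A match of letters is not a binding site.

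Among the fibril-associated collagens, COL12A1 and COL14A1 rose and COL9A2 and COL22A1 fell over both hairpins. COL12A1, a long chain on the surface of collagen I fibrils, had 4.204 and 4.068 CPM with shBCAT1#1 and 3.94 and 4.65 CPM with shBCAT1#2, against 1.51 and 1.97 CPM in shControl. Its rise was nearly the same size with shBCAT1#1 (1.25, SE 0.19, edgeR adjusted p = 6.9e-04) and with shBCAT1#2 (1.30, SE 0.19, adjusted p = 5.4e-04), and the hairpin difference was 0.05 (SE 0.18, adjusted p = 0.83). COL14A1, a related chain, had 8.72 and 8.38 CPM with shBCAT1#1 and 3.05 and 3.37 CPM with shBCAT1#2, against 2.67 and 2.19 CPM in shControl. It rose by 1.81 with shBCAT1#1 (SE 0.15, edgeR adjusted p = 2.6e-05), the value with shBCAT1#2 was 0.40 (adjusted p = 0.066), and the hairpins differed by −1.41 (adjusted p = 1.1e-04). COL22A1, found at tissue junctions, had 17.5 and 20.2 CPM with shBCAT1#1 and 10.1 and 8.33 CPM with shBCAT1#2, against 23.7 and 20.9 CPM in shControl. It fell by 1.27 with shBCAT1#2 (SE 0.13, adjusted p = 7.0e-05), and shBCAT1#1 gave −0.24 (adjusted p = 0.14). The hairpins differed by −1.03 (edgeR adjusted p = 2.4e-04), with shBCAT1#2 the lower, as for COL14A1.

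COL9A2, a chain of the cartilage collagen IX, had 34.1 and 34.9 CPM with shBCAT1#1 and 32.6 and 31.9 CPM with shBCAT1#2, against 44.6 and 37.8 CPM in shControl. Its fall of 0.31 (SE 0.07, edgeR adjusted p = 0.0066) was 0.19 without shControl replicate 1 and then not called (adjusted p = 0.074), and it was 0.04 after correction for GC content and length (adjusted p = 0.61). With shBCAT1#1 alone the fall of 0.26 (adjusted p = 0.030) was also lost without shBCAT1#1 replicate 1 (0.12), shBCAT1#1 replicate 2 (0.081) or shControl replicate 1 (a value of −0.14, adjusted p = 0.21), and with shBCAT1#2 alone the value of −0.35 was −0.23 without shControl replicate 1. COL9A3 had 3.89 and 4.65 CPM with shBCAT1#1 and 3.07 and 3.37 CPM with shBCAT1#2, against 4.893 and 3.999 CPM in shControl, and COL16A1 had 1.57 and 1.11 CPM with shBCAT1#1 and 1.68 and 1.80 CPM with shBCAT1#2, against 0.899 and 1.41 CPM in shControl. Neither was called in any of the 4 comparisons. COL9A1, COL19A1 and COL21A1 were not tested.

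COL7A1, whose protein makes the anchoring fibrils under epithelia, had 14.4 and 13.7 CPM with shBCAT1#1 and 11.47 and 10.05 CPM with shBCAT1#2, against 22.6 and 19.9 CPM in shControl. It fell by 0.59 with shBCAT1#1 and by 0.98 with shBCAT1#2 (SE 0.11 each, edgeR adjusted p = 0.0018 and 1.2e-04). The hairpin difference of −0.39 (adjusted p = 0.018) was lost without shBCAT1#1 replicate 1 (0.077) or shBCAT1#2 replicate 2 (0.12). COL23A1, a transmembrane collagen shed from the cell surface, had 1.42 and 1.91 CPM with shBCAT1#1 and 1.91 and 1.70 CPM with shBCAT1#2, against 4.76 and 4.54 CPM in shControl. It fell by 1.49 with shBCAT1#1 and by 1.37 with shBCAT1#2 (SE 0.20 and 0.19, edgeR adjusted p = 3.4e-04 and 5.1e-04), with a hairpin difference of 0.12 (SE 0.21, adjusted p = 0.67). COL13A1, another transmembrane collagen, had 1.75 and 1.97 CPM with shBCAT1#1 and 2.65 and 2.95 CPM with shBCAT1#2, against 1.82 and 2.00 CPM in shControl. It rose by 0.55 with shBCAT1#2 (adjusted p = 0.038), a call lost without any 1 of the 4 libraries compared (adjusted p of 0.074 to 0.16). The hairpin difference of 0.59 (adjusted p = 0.032) was lost likewise, at 0.063 to 0.14.

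The multiplexins COL15A1 and COL18A1 are basement membrane collagens that carry glycosaminoglycan chains and release anti-angiogenic fragments. COL15A1 had 7.01 and 5.92 CPM with shBCAT1#1 and 2.60 and 2.34 CPM with shBCAT1#2, against 3.33 and 3.67 CPM in shControl. The values with the hairpins had opposite signs, 0.89 with shBCAT1#1 (SE 0.16, edgeR adjusted p = 0.0016) and −0.50 with shBCAT1#2 (SE 0.16, adjusted p = 0.031), and they differed by −1.39 (adjusted p = 1.7e-04). The shBCAT1#2 value alone was not called without any 1 of the 4 libraries compared, at −0.43 to −0.59 with adjusted p of 0.054 to 0.15. COL18A1 had 5.75 and 6.01 CPM with shBCAT1#1 and 9.93 and 9.12 CPM with shBCAT1#2, against 10.1 and 10.2 CPM in shControl, and it fell by 0.79 with shBCAT1#1 (SE 0.11, adjusted p = 4.0e-04), while shBCAT1#2 gave −0.09 (adjusted p = 0.49) and the hairpins differed by 0.70 (adjusted p = 9.2e-04). Exons of SLC19A1 on the opposite strand cover 16.4% of the COL18A1 exons, and whether the counting used strand is not given in the sources used here. Among low genes, COL26A1 had 4 and 4 counts with shBCAT1#1 and 16 and 24 counts with shBCAT1#2, against 10 and 13 counts in shControl. The hairpins differed for COL26A1 by 2.14 (adjusted p = 0.012), which was lost without shBCAT1#1 replicate 1 (0.071), shBCAT1#1 replicate 2 (0.0501) or shBCAT1#2 replicate 2 (0.094). COL8A2, the one tested short-chain collagen, had 10 and 8 counts with shBCAT1#1 and 4 and 8 counts with shBCAT1#2, against 27 and 10 counts in shControl, and COL17A1 had 0 to 14 counts per library, both without a call. The remaining genes that were not tested were COL8A1, COL25A1 and COL28A1.

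Chains that join in a trimer were compared per kilobase of exon. COL6A2 and COL6A1 stood at ratios of 1.01 and 1.04 with shBCAT1#1 and 1.03 and 1.04 with shBCAT1#2, against 1.47 and 1.43 in shControl. The COL6A3 level was 1.61 to 1.77 times that of COL6A2 in shBCAT1 libraries and 1.10 to 1.16 times in shControl libraries. COL5A1 exceeded COL5A2 73.4-fold and 54.9-fold with shBCAT1#1 and 71.6-fold and 75.1-fold with shBCAT1#2, against 142-fold and 121-fold in shControl. COL1A1 exceeded COL1A2 by at least 501-fold in every library, although collagen I of most tissues holds chains of both genes. COL4A2 exceeded COL4A1 12.8-fold to 27.8-fold over the 6 libraries, with 4 to 12 counts of COL4A1 in each. The COL9A2 level was 8.60 to 12.2 times that of COL9A3, with overlapping groups. These ratios are descriptions, and they depend on the exon lengths of the annotation used.

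**Figure D4:**
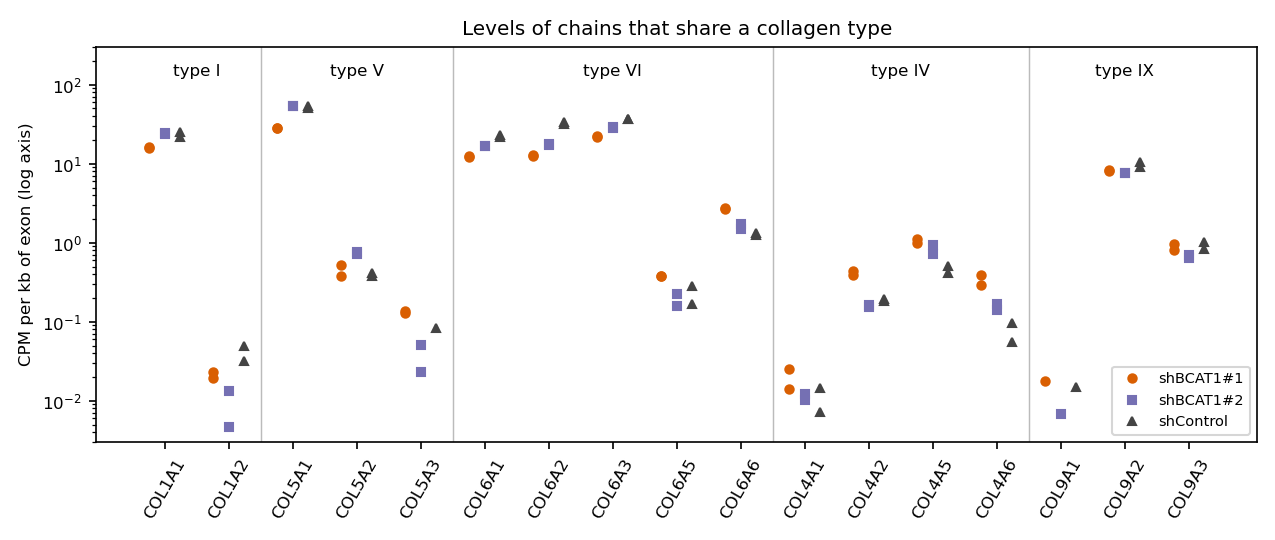
CPM per kilobase of exon on a log axis for chains that share a collagen type, with a point for each library (circles shBCAT1#1, squares shBCAT1#2, triangles shControl); libraries with 0 counts are not drawn. COL6A1, COL6A2 and COL6A3 lie close together, while COL1A2 lies at least 501-fold below COL1A1 in each library.

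GC content moved with the fold changes. Over 13907 protein-coding genes tested, log2 fold change and the GC content of the longest transcript had a Spearman correlation of −0.44 for both hairpins against shControl, −0.30 for shBCAT1#1 and −0.45 for shBCAT1#2; this is across genes, which are not independent replicates. Over all 44 collagen genes, of which 14 were not tested, the median GC content was 55.3% (41.3% to 67.4%). It was 48.8% for the 13907 tested genes, so these medians cover unlike sets. The lowest collagen value belonged to COL25A1, which was not tested. Each library was therefore also corrected for GC content and length with natural splines, after which 7 collagen genes were called higher and 11 lower over both hairpins, where 21.9% and 29.8% of the 13907 genes were called. COL9A2 and COL5A2 (0.28, adjusted p = 0.16) were the genes no longer called. COL6A6 was 0.28 in place of 0.68, still called. COL6A2 was −0.89, COL6A1 −0.44 and COL6A3 −0.75, all still called. With shBCAT1#2 alone, COL6A1 was −0.19 in place of −0.42 and COL6A3 was −0.56 in place of −0.35.

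**Figure D5:**
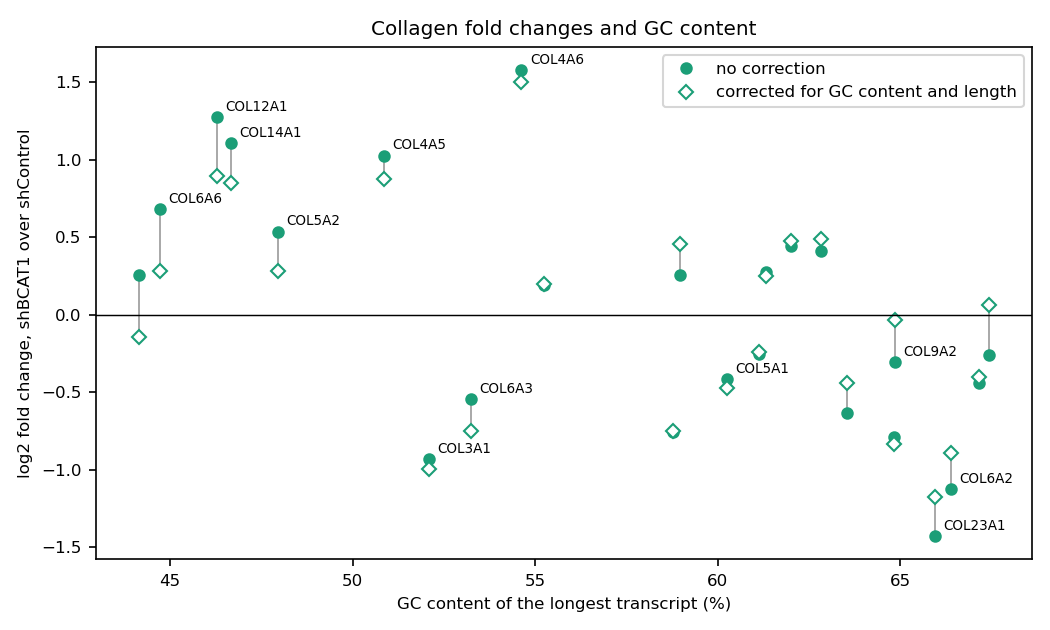
Log2 fold change of both hairpins over shControl for the 24 collagen genes with a mean of at least 1 CPM, against the GC content of the longest transcript, before (filled circles) and after (open diamonds) correction for GC content and length. COL9A2 moves to −0.04 and COL6A6 to 0.28, while COL6A2, COL3A1 and COL23A1 are at −0.89, −0.99 and −1.17 after correction.

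The lists of genes that act on or with collagens are read against all genes tested, of which 23.6% were called higher and 26.4% lower over both hairpins (median −0.01), and 21.9% and 29.8% after the GC and length correction. Enzymes that modify procollagen chains were mostly lower. Of 15 tested genes for prolyl and lysyl hydroxylation, glycosylation and prolyl isomerisation, 2 rose and 10 fell over both hairpins, with a median log2 fold change of −0.41. After the GC and length correction 2 were called higher and 11 lower. PPIB, the cyclophilin that isomerises prolines in the chains, averaged 415 ± 1.33 CPM with shBCAT1#1 and 343 ± 3.11 with shBCAT1#2, against 656 ± 17.0 in shControl (SD, n = 2 each), and fell by 0.80 (SE 0.03, edgeR adjusted p = 1.5e-06). After correction that fall was 0.42. PLOD1, a lysyl hydroxylase, averaged 220 ± 0.654 CPM with shBCAT1#1 and 124 ± 4.03 with shBCAT1#2, against 293 ± 2.26 in shControl, and fell by 0.83 (SE 0.03, adjusted p = 1.5e-06). COLGALT2, a collagen galactosyltransferase, averaged 1.11 ± 0.218 CPM with shBCAT1#1 and 1.40 ± 0.125 with shBCAT1#2, against 0.613 ± 0.293 in shControl. Its rise of 1.02 (SE 0.32, adjusted p = 0.028) was 0.60 without shControl replicate 2 (0.18) and 1.61 without shControl replicate 1, and it was lost without shBCAT1#1 replicate 1 (0.074) or shBCAT1#2 replicate 2 (0.066) too.

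Folding and secretion genes went both ways, with 9 of 18 higher and 5 lower (median 0.14), against 23.6% and 26.4% of all genes. After the correction 5 were higher and 7 lower (median −0.06), against 21.9% and 29.8%, so that 5 of 18 is near the background in both cases. MIA3, also called TANGO1, loads procollagen into transport carriers, and it averaged 155 ± 1.83 CPM with shBCAT1#1 and 149 ± 2.69 with shBCAT1#2, against 89.95 ± 1.83 in shControl, a rise of 0.75 (SE 0.04, edgeR adjusted p = 2.6e-06) and of 0.32 after correction. PREB, which activates the coat of these carriers, averaged 173 ± 2.06 CPM with shBCAT1#1 and 66.3 ± 4.73 with shBCAT1#2, against 185 ± 10.6 in shControl, and fell by 1.48 with shBCAT1#2 (adjusted p = 1.7e-06) while shBCAT1#1 gave −0.10 (0.21). PDIA3, a disulphide isomerase, averaged 416 ± 3.51 CPM with shBCAT1#1 and 529 ± 11.9 with shBCAT1#2, against 663 ± 5.30 in shControl, and fell by 0.50 (SE 0.03, adjusted p = 7.8e-06).

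Of 13 tested genes for propeptide removal and cross-linking, 3 rose and 7 fell (median −0.37), against 23.6% and 26.4% of all genes, so that the count of rises is at the background. LOXL2, a lysyl oxidase relative that cross-links collagen IV, averaged 53.0 ± 0.745 CPM with shBCAT1#1 and 125 ± 1.90 with shBCAT1#2, against 186 ± 7.01 in shControl. It fell by 1.81 with shBCAT1#1 and by 0.57 with shBCAT1#2 (edgeR adjusted p = 1.5e-07 and 1.8e-05), the shBCAT1#2 value being −0.36 after correction. PCOLCE, which enhances removal of the C-propeptide, averaged 163 ± 4.82 CPM with shBCAT1#1 and 181 ± 1.65 with shBCAT1#2, against 303 ± 2.504 in shControl, a fall of 0.81 (adjusted p = 1.6e-06) and of 0.39 after correction. ADAMTS3, a procollagen N-proteinase, rose by 0.52 over both hairpins (adjusted p = 2.2e-05), with 0.86 for shBCAT1#1 and 0.18 for shBCAT1#2 and a hairpin difference of −0.68 (adjusted p = 1.0e-05). After correction the shBCAT1#1 value was 0.58 and the shBCAT1#2 value was −0.20, called lower (edgeR adjusted p = 0.0037), so the corrected 0.19 over both hairpins averages opposite signs. In the list of collagen breakdown 0 of 14 tested genes rose and 9 fell (median −0.32), against 23.6% and 26.4% of all genes, with 1 and 10 after correction, against 21.9% and 29.8%. Among them MMP14, the membrane-bound collagenase, averaged 317 ± 1.62 CPM with shBCAT1#1 and 352 ± 13.2 with shBCAT1#2, against 595 ± 41.5 in shControl, and fell by 0.83 (SE 0.05, adjusted p = 3.7e-06). TIMP1, an inhibitor of metalloproteinases, fell by 0.90 (adjusted p = 7.4e-06), or 0.44 after correction, and MMP15 by 0.55 (adjusted p = 3.1e-05), or 0.35 after correction. So the list holds both proteases and their inhibitors among the genes that fell.

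Fibril partners were lower in 12 of 17 tested genes and higher in 1 (median −0.29), against 26.4% and 23.6% of all genes. After correction 13 were lower and 1 higher (median −0.55), against 29.8% and 21.9%. BGN, the small proteoglycan biglycan, averaged 484 ± 7.59 CPM with shBCAT1#1 and 444 ± 10.04 with shBCAT1#2, against 842 ± 11.4 in shControl, and fell by 0.86 (SE 0.03, edgeR adjusted p = 1.3e-06), or 0.55 after correction. EMILIN1, a glycoprotein of elastic fibres, fell by 1.28 (SE 0.05, adjusted p = 1.7e-06). CCN2, a matrix-associated growth factor modulator, averaged 1.64 ± 0.0122 CPM with shBCAT1#1 and 29.7 ± 2.16 with shBCAT1#2, against 3.88 ± 0.172 in shControl. It fell by 1.24 with shBCAT1#1 and rose by 2.93 with shBCAT1#2, a hairpin difference of 4.17 (adjusted p = 1.6e-07). Of 14 tested basement membrane partners 6 were higher and 6 lower (median −0.05), against 23.6% and 26.4% of all genes, and 2 and 6 after correction, against 21.9% and 29.8%. NID1, the linker nidogen, fell by 0.93 (adjusted p = 4.7e-06), and HSPG2, perlecan, by 0.70 (adjusted p = 8.5e-06). LAMA4, a laminin chain, averaged 45.1 ± 0.947 CPM with shBCAT1#1 and 10.5 ± 0.736 with shBCAT1#2, against 10.96 ± 1.32 in shControl, with a hairpin difference of −2.10 (adjusted p = 1.4e-06).

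Of 11 tested collagen receptors, 3 rose and 4 fell (median −0.14), against 23.6% and 26.4% of all genes, so that 3 of 11 is near the background. After correction 1 was higher and 5 lower, against 21.9% and 29.8%. DDR2, a receptor kinase for fibrillar collagen, had a log2 fold change of 0.41 (edgeR adjusted p = 3.2e-05) that was −0.05 after the GC and length correction (0.18). ITGA2 gave 0.62 (adjusted p = 2.6e-04) and 0.19 after correction (0.078). The endocytic receptor MRC2 fell by 0.44 over both hairpins (edgeR adjusted p = 5.8e-05). By hairpin the fall was 0.72 with shBCAT1#1 and 0.16 with shBCAT1#2 (adjusted p = 1.0e-05 and 0.029). The hairpins differed by 0.56 (adjusted p = 4.3e-05). After correction the shBCAT1#1 value was −0.67, still called, and the shBCAT1#2 value was −0.07 (0.25). In proline and glycine synthesis, which supplies the main residues of collagen chains, 5 of 11 rose and 3 fell (median −0.11), against 23.6% and 26.4% of all genes, or 6 and 1 after correction (median 0.22), against 21.9% and 29.8%. By hairpin, 6 were higher and 1 lower for shBCAT1#1, against 24.2% and 24.9% of all genes. For shBCAT1#2, 3 were higher and 5 lower, against 23.9% and 25.4%. For shBCAT1#2 over shBCAT1#1, 1 was higher and 7 lower, against 22.9% and 23.3%. After correction the counts were 8 and 1 for shBCAT1#1, against 27.8% and 28.2%. They were 5 and 3 for shBCAT1#2, against 21.3% and 30.1%. Between the hairpins they were 2 and 7, against 26.9% and 33%. ALDH18A1, the first enzyme from glutamate to proline, averaged 153 ± 3.09 CPM with shBCAT1#1 and 171 ± 1.11 with shBCAT1#2, against 111 ± 0.0349 in shControl, and rose by 0.54 (SE 0.03, adjusted p = 7.2e-06). PSAT1, of the serine pathway, rose by 0.62 over both hairpins (edgeR adjusted p = 1.2e-05). Its rise was 1.03 with shBCAT1#1 and 0.22 with shBCAT1#2 (adjusted p = 1.7e-06 and 0.0072), a hairpin difference of −0.81 (adjusted p = 4.8e-06). PYCR3, a pyrroline-5-carboxylate reductase, fell by 0.86 (adjusted p = 6.0e-05), or 0.57 after correction. Of 27 transcription and signalling regulators of collagen genes, 9 rose and 7 fell (median 0.10). Of all genes 23.6% and 26.4% did so, and 7 of 27 is near that background. After correction 4 were higher and 9 lower (median −0.01), against 21.9% and 29.8%. TGFB3 fell by 0.94 (adjusted p = 1.3e-05), SKI, a repressor of SMAD activity, rose by 0.51 (adjusted p = 1.9e-05), and TEAD1, the DNA-binding partner of YAP1, rose by 0.63 (adjusted p = 2.8e-05), or 0.19 after correction.

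Genes with the pattern most like the steepest called fall among collagens of at least 5 CPM were sought among 10999 genes of that level. For COL6A2 the highest Pearson correlations of log2 CPM over the 6 libraries belonged to PTX3 (0.9992), RPS18, PFKP, FUOM and SGSH, and 116 genes exceeded 0.99. These are descriptions over 6 libraries in 3 groups, which share their depth and their groups.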

How the data were processed

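The authors deposited a table of gene counts from RNA sequencing of 6 libraries; the submitters' processing notes name HISAT2 2.2.0, StringTie and the hg38 build, while the annotation behind the counts, and any use of strand, is not stated in those notes or labels. The deposited counts are whole numbers that were not normalized. How reads in shared exons were assigned is not stated in the sources used here, so genes that share exons may share reads. No column of per-sample values was left unused (0).

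Groups came from the labels. Of 64252 rows, 40995 had a symbol in the gene name table. Coordinates, exon lengths and overlaps are from GENCODE release 29. Counts were filtered with edgeR's filterByExpr (minimum count 10), scaled by TMM and fitted with the quasi-likelihood test (edgeR 4.0.16, R 4.3.3), with a term per group, all 6 libraries and 3 residual degrees of freedom; p-values were adjusted over 18734 genes by the Benjamini-Hochberg method. CPM values use the TMM-scaled library size. A script was tested on simulated data. Alternatives were RLE size factors, other count filters, DESeq2 1.42.0, limma 3.58.1 (voom), a replicate block, a correction for GC content and length (natural splines with 5 degrees of freedom each), a fold threshold of 1.5 and leaving out each library. Intervals and limits cover counting error only.

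Named were collagens with a mean of at least 1 CPM, those that were the only tested gene of their class, the 3 genes of each list with the smallest p over both hairpins (with 1 of each direction where both passed), and the 5 genes most correlated with the collagen of steepest fall at 5 CPM or more; the same for the steepest rise is not reported here. COL1A2, COL5A3, COL11A2, COL17A1, COL4A1 and COL4A4 were named after their values were seen. The collagen genes and the lists were chosen with earlier results of these data known.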

Additional observations from a re-analysis of the deposited data

Results flagged for a closer look

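For 19 collagen genes the effect of the hairpins against shControl differed by the test of shBCAT1#2 over shBCAT1#1 itself (edgeR, adjusted p under 0.05, 2 libraries each), where 46.2% of all genes were called. Without shBCAT1#1 replicate 1 the counts were 7 higher and 5 lower, in place of 11 and 8. The difference was negative, shBCAT1#2 lower, for COL14A1 (−1.41), COL15A1 (−1.39), COL4A2 (−1.37), COL4A6 (−1.14), COL22A1 (−1.03), COL6A5 (−0.97), COL6A6 (−0.75) and COL7A1 (−0.39). It was positive, shBCAT1#2 higher, for COL26A1 (2.14), COL5A1 (0.93), COL5A2 (0.71), COL18A1 (0.70), COL1A1 (0.60), COL13A1 (0.59), COL6A2 (0.45), COL6A1 (0.44), COL6A3 (0.39), COL27A1 (0.38) and COL3A1 (0.19). BCAT1 itself was 1.03 higher on the log2 scale with shBCAT1#2 than with shBCAT1#1; its part in these differences was not tested.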

How the results depend on the processing

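Of the values of named collagens in all comparisons and of named list genes over both hairpins, under the alternatives, 2114 kept direction and side of the threshold, 134 lost the call, 15 gained it and 28 changed sign. Requiring a fold of 1.5 left 4 of 8 collagen rises and 3 of 12 falls over both hairpins (1039 genes in all, against 9361). With shBCAT1#1 it left 6 rises and 6 falls (1769 genes, against 9199). With shBCAT1#2 it left 1 rise and 5 falls (1397, against 9236). Between the hairpins it left 1 higher and 4 lower (1774, against 8650). Without a count filter, 4 collagens rose with shBCAT1#2. Leaving out each library gave 6 to 8 rises and 10 to 13 falls over both hairpins (7517 to 8889 genes in all), 7 to 8 and 9 to 10 with shBCAT1#1 (7725 to 8798), 4 to 7 and 8 to 11 with shBCAT1#2 (7216 to 9202), and 7 to 11 and 5 to 9 between the hairpins (6561 to 8732). Without genes that overlap others, the log2 ratio of class sums was 1.12 in place of 0.95 for collagen IV and −0.29 in place of −0.35 for fibrillar collagens. This left out COL4A2 and COL3A1 whole, although other genes overlap only 0.49% and 0.015% of their exons. The part of shared reads in these shifts was not tested.

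Signs changed as follows, and the cause was not tested. After the GC and length correction, without and with the replicate block, the values over both hairpins were −0.1426 and −0.1173 for COL6A5, 0.0606 and 0.0575 for COL9A3 and −0.0522 and −0.0522 for DDR2. With shBCAT1#1 they were 0.2618 and 0.2585 for COL9A3, −0.0515 and −0.0556 for COL5A2 and 0.1266 and 0.1290 for COL13A1. With shBCAT1#2 they were −0.1354 and −0.1370 for COL6A6, and between the hairpins −0.0046 and −0.0138 for COL12A1. By hairpin the same correction, without the block, gave 0.07 for PREB and −0.11 for DDR2 with shBCAT1#1 (−0.10 and 0.29 before) and −0.20 for ADAMTS3 and −0.0031 for ITGA2 with shBCAT1#2 (0.18 and 0.51 before). Leaving out 1 library at a time gave ranges across 0 for COL6A5 over both hairpins (−0.0859 to 0.6868). With shBCAT1#1 this held for COL16A1 (−0.0634 to 0.5797), COL9A3 (−0.1997 to 0.0899), COL5A2 (−0.0511 to 0.3930) and COL13A1 (−0.1167 to 0.0442). With shBCAT1#2 it held for COL6A5 (−0.5719 to 0.2009) and COL1A1 (−0.0407 to 0.1343), and between the hairpins for COL12A1 (−0.0664 to 0.1657) and COL23A1 (−0.0849 to 0.3412).

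Same-numbered libraries shared little deviation from their group means. The correlations were 0.065 (shBCAT1#1 and shControl), −0.083 (shBCAT1#2 and shControl) and −0.104 (shBCAT1#2 and shBCAT1#1). The labels do not tell whether same-numbered libraries were prepared together, and these correlations cannot show it. With the replicate block, 9000 genes were called over both hairpins, including 8 collagens higher and 12 lower. The number was 8802 with shBCAT1#1, 8841 with shBCAT1#2 and 8218 between the hairpins. Among named collagens, 1 call was gained with shBCAT1#1, 1 lost with shBCAT1#2 and 1 gained between the hairpins. With the numbers of shBCAT1#2 crossed, a choice made after seeing the data, 8962, 8755, 8824 and 8187 genes were called. With 2 libraries a group, low collagens such as COL1A2 and COL26A1 rest on few counts.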
